A study of Mus musculus with 474 samples.

Results

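Interferon-induced GTPases are cytosolic enzymes that bind and hydrolyse GTP and that cells make after interferon binds its receptors and activates transcription factors of the STAT and IRF families. Immunity-related GTPases (IRGs) and guanylate-binding proteins (GBPs) assemble on the vacuoles in which intracellular parasites and bacteria live, and the IRGM proteins are regulatory members that hold the effector IRGs off the membranes of the cell itself. In resting tissue these genes are usually low, and they are widely used as readouts of interferon, above all interferon-gamma, acting on a cell. The 8 genes described here were chosen by name from the 20612 genes with deposited counts: the IRGs Igtp (also called Irgm3), Irgm1, Irgm2 and Iigp1 (Irga6), the GBPs Gbp2, Gbp3 and Gbp7, and Gvin1, a member of the very large inducible GTPases. All 8 passed the filter on low counts, which kept 18823 genes.

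Gene expression was measured by RNA-seq of polyadenylated RNA in skeletal muscle (gastrocnemius, from the study's methods) of female and male Diversity Outbred mice, a stock in which each animal carries its own mosaic of inbred founder genomes. The library titles give the sex and a number, 17, 18, 19, 21 or 23, that was read here as the outbreeding generation; the methods name only generations 18, 19 and 21 for the cohort, so this reading is an assumption. Each of the 10 groups of 1 sex and 1 generation held 45 to 50 mice, from 45 females of generation 18 to 50 males of generation 19. All mice were on the same high-fat, high-sugar diet, labelled 45percent fat, from 4 weeks of age until harvest at 22 weeks. There was no untreated, infected or other-diet group, so the design compares the sexes and the generations and shows how much animals differ. The study also adjusted its tests for the wave of mice, which the labels do not give. Differences between generations therefore cannot be told apart from differences between waves. Library totals were 35.9 to 165.7 M estimated counts (median 79.3 M), and the 8 muscle fibre marker genes summed to 92082 to 190431 CPM (counts scaled to a common library size) in every female and 104058 to 172833 CPM in every male. In 5 libraries the level of Xist or of the Y-linked gene Ddx3y, or both, went against the labelled sex. None of the 5 was among the 24 animals with the highest levels of the GTPases, and results are also given without them. Library numbers were cut here into 5 consecutive runs of a chosen size, called blocks, each of which held all 5 generations. Only the border between blocks 1 and 2 lies at a gap in the numbers. The other borders were set by the chosen size, so the blocks need not match the batches in which the libraries were made. In bulk tissue, fewer cells of a type and less RNA per cell cannot be told apart, and this holds for every level below.

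Interferon acts on these genes through promoter elements, of which the interferon-stimulated response element, bound by IRF family factors, carries the letters GAAANNGAAA, and the gamma-activated site carries TTCNNNGAA. In the RefSeq promoters (GRCm38.p6, 250 bases before to 50 bases after a start, searched on both strands), sequences were found for 6 of the 8 genes. GAAANNGAAA occurred in all 6, against 3.44% of 32851 promoters of the same length, and TTCNNNGAA occurred in Igtp, Irgm2 and Gbp7 (2 matches), against 8.30% of promoters. The 50 bases around the matches are shown because each of these genes carries the GAAANNGAAA letters, in one or the other orientation, within 64 bases of the RefSeq start; capitals mark the matches, and each line reads 5′ to 3′ along the strand of its gene.
Gbp2 (chr3:142620584-142620633, plus strand, first match 59 bases before the start): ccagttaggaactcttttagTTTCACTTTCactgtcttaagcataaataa
Gbp3 (chr3:142559979-142560028, plus strand, first match 45 bases before the start): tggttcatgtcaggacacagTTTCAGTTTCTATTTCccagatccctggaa
Gbp7 (chr3:142530263-142530312, plus strand, first match 53 bases before the start): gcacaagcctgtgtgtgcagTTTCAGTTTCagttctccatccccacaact
Igtp (chr11:58199502-58199551, plus strand, first match 34 bases before the start): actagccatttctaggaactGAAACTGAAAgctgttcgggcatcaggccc
Irgm2 (chr11:58214893-58214942, plus strand, first match 64 bases before the start): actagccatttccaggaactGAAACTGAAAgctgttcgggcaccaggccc
Irgm1 (chr11:48871421-48871470, minus strand, first match 30 bases before the start): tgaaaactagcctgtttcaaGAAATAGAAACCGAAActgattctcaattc
Gbp3 and Irgm1 each hold 2 overlapping GAAANNGAAA matches. The promoters of Igtp and Irgm2 are 68.1% identical over 270 aligned bases. Their longest identical run, 61 bases, begins 11 bases before the Igtp start and 41 before the Irgm2 start, after the matches shown. A TTCNNNGAA match lies just before the capitals in both, 45 bases before the Igtp start and 75 before the Irgm2 start. The RefSeq starts used for Gbp2, Gbp3, Irgm1 and Irgm2 lie inside the GENCODE gene bodies given next, and so do the GAAANNGAAA matches of Gbp2, Irgm1 and Irgm2. A match describes the letters only, and binding was not measured.

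The genes sit in clusters (GRCm38, GENCODE M21). Gbp7 (ENSMUSG00000040253, chr3:142530342-142550149), Gbp3 (ENSMUSG00000028268, chr3:142560026-142573209) and Gbp2 (ENSMUSG00000028270, chr3:142620602-142638008) follow each other on the plus strand of chromosome 3. Igtp (ENSMUSG00000078853, chr11:58199556-58207591) and Irgm2 (ENSMUSG00000069874, chr11:58199618-58222782) overlap on the plus strand of chromosome 11, and Irgm1 (ENSMUSG00000046879, chr11:48861968-48871683, minus strand) lies 9338 kb away from them. Iigp1 (ENSMUSG00000054072) is at chr18:60376027-60392634 on the plus strand and Gvin1 (ENSMUSG00000045868) at chr7:106156556-106215326 on the minus strand. All 8 are annotated as protein coding. Igtp and Irgm2 overlap in their exons, and 5.16% of the 100-base words of Igtp transcripts also occur in Irgm2, so their counts could in part be exchanged. Gbp7 shares 9.59% of its words with the overlapping gene model Gm43802, and Gvin1 shares 96.7% of its words with Gm4070, so the split of reads between these pairs is uncertain. Irgm1, Iigp1 and Gbp2 shared no 100-base word with another gene, and Gbp3 shared 0.694% with Gbp7.

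The median levels of the GTPases lay in the middle of the range of all genes, in CPM above 41.2% (Gbp3) to 67.02% (Irgm1) of the genes tested. Per kilobase of exon, the median level was highest for Igtp at 2.65 CPM per kb and Irgm2 at 2.54, followed by Irgm1 at 2.18, Gbp7 at 1.66, Gbp2 at 1.64, Iigp1 at 0.643, Gbp3 at 0.611 and Gvin1 at 0.490. Neighbours in this order overlapped widely between animals. Igtp was above Irgm2 in 57% of animals, Gbp7 above Gbp2 in 45% and Iigp1 above Gbp3 in 53%, so the order within these pairs is not beyond the spread. Irgm2 was above Irgm1 in 66%, Irgm1 above Gbp7 in 69% and Gbp3 above Gvin1 in 62%, whereas Gbp2 was above Iigp1 in 82.5%. The middle 50% of animals spanned 1.91 to 3.63 CPM per kb for Irgm2, 1.97 to 2.40 for Irgm1 and 0.313 to 1.48 for Iigp1.

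The upper tail was very long. Iigp1, an effector IRG that coats parasite vacuoles, ranged from 0.279 to 2814 CPM around a median of 3.74, so the highest animal stood 752-fold above the median. Igtp, which regulates the effector IRGs, ranged from 2.04 to 830.3 CPM (median 5.36). Irgm2, another regulatory IRG, ranged from 2.62 to 1069 CPM (median 9.37). Gbp7, a GBP involved in host defence, ranged from 2.55 to 673.6 CPM (median 9.34). These 4 genes were high in the same female, DO326 of generation 21, and the rest of the animals stayed well below it. Irgm1, the regulatory IRG whose loss leaves mice open to mycobacteria, ranged from 5.14 to 402.6 CPM (median 12.7), again with DO326 at the top. Gbp2, a GBP that attacks bacterial and parasite vacuoles, ranged from 1.93 to 73.3 CPM (median 4.13), and Gbp3 from 0.173 to 34.96 CPM (median 2.00); both were highest in another generation 21 female, DO337. Gvin1 ranged from 0 to 59.4 CPM (median 4.41) and was highest in DO370. In their highest animal, 4 of the 8 genes reached at least 50 times their median (Igtp, Irgm2, Iigp1 and Gbp7), beside 2.32% of all genes tested.

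**Figure D1:**
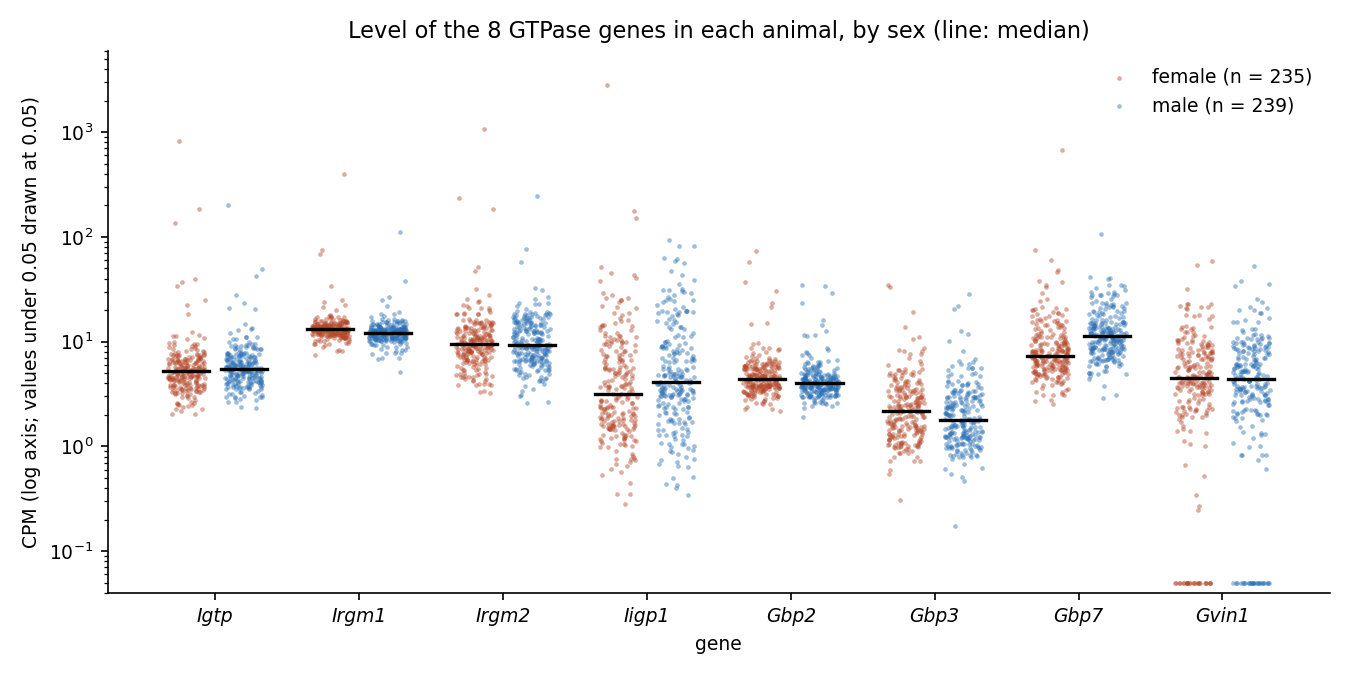
Level of each of the 8 GTPases in every animal, on a log axis in CPM, with females and males side by side and the median of each sex marked. The medians of both sexes lie between 1.81 CPM (Gbp3, males) and 13.1 CPM (Irgm1, females), a few animals reach up to 2814 CPM (Iigp1, DO326), and Gvin1 shows a second cluster at or near 0.

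How many animals made up the tail differed between members. Iigp1 exceeded 10 times its median in 18 animals, Gbp3 in 5, Igtp and Irgm2 in 4 each, Gvin1 in 3, Gbp2 and Gbp7 in 2 each, and Irgm1 in 1. After removal of the sex and generation means, the SD between animals on the log2 CPM scale was 0.41 for Irgm1, near the median of 0.38 over all genes tested, and 1.64 for Iigp1, above 97.7% of genes. Gvin1 had the largest SD of the 8, 2.60, with the cluster of animals near 0 described at the end included.

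The sex comparison asked whether the GTPases differ between female and male muscle. Gbp7 was higher in males, and Irgm1 and Gbp2 were lower in males, by small amounts. In edgeR's quasi-likelihood test with generation in the model and Benjamini-Hochberg adjustment over 18823 genes, 3 of the 8 GTPases passed 0.05, 1 higher and 2 lower in males, whereas of all genes tested 24.4% were called higher and 30.6% lower in males, so the share among the GTPases was no higher than among all genes. With each library scaled by its total count alone, Gbp7 lost its call, and of the genes called in either direction the share higher in males was 30.8% (3330 of 10799), against 44.3% (4595 of 10362).

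Gbp7 was 2.55, 7.38 and 673.6 CPM (lowest, median, highest) in females and 2.93, 11.2 and 107.7 CPM in males. The ranges overlap over nearly their whole length, but the male median was 1.52 times the female median, and it was the higher of both in 5 of 5 generations. The fitted difference, male minus female, was 0.22 on the log2 scale (SE 0.096, 95% interval 0.03 to 0.41, edgeR adjusted p = 0.0419). Without DO326, which is a female, the difference was 0.44 (SE 0.078, edgeR adjusted p = 1.51e-07), and without the 5 libraries against their label it was 0.21 (edgeR adjusted p = 0.0508). Within the library blocks, Gbp7 was higher in males in 4 of 5 blocks, from -0.37 in block 1, which holds DO326, to 0.78 in block 4. It was higher in males in 16 of the 17 alternative settings, 10 of which passed. With generation left out of the model the difference was 0.08 (edgeR adjusted p = 0.534), and with DESeq2 size factors 0.21 (edgeR adjusted p = 0.0515).

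Irgm1 was 7.43, 13.1 and 402.6 CPM in females and 5.14, 12.2 and 111.7 CPM in males. Its male median was below the female median in 5 of 5 generations, at 0.871 to 0.969 of it. The fitted difference was -0.22 (SE 0.054, 95% interval -0.33 to -0.12, edgeR adjusted p = 1.56e-04), and it was lower in males in 5 of 5 blocks and in all 17 alternative settings, 14 of which passed. Without DO326 the difference was -0.11 (edgeR adjusted p = 0.0119).

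Gbp2 was 2.18, 4.44 and 73.3 CPM in females and 1.93, 4.02 and 34.6 CPM in males, with a fitted difference of -0.18 (SE 0.071, edgeR adjusted p = 0.0187) that no longer passed without DO326 (-0.15, edgeR adjusted p = 0.0546). The call for Iigp1 depended on 1 animal and on the model. Its medians were 3.20 CPM in females and 4.15 CPM in males, and its fitted difference was 0.05 (SE 0.196, edgeR adjusted p = 0.842), against 0.38 (SE 0.157, edgeR adjusted p = 0.0326) without DO326 alone and -1.07 (edgeR adjusted p = 8.11e-07) with generation left out of the model. For Igtp (-0.12, SE 0.119, interval -0.35 to 0.11), Irgm2 (-0.16, SE 0.109, interval -0.37 to 0.05), Gbp3 (-0.17, SE 0.0996, interval -0.37 to 0.02) and Gvin1 (-0.02, SE 0.160, interval -0.34 to 0.29) no sex difference passed the test, within the intervals given. With generation left out of the model Igtp (-0.57, edgeR adjusted p = 2.78e-05) and Irgm2 (-0.47, edgeR adjusted p = 1.50e-04) were called lower in males. Within block 4 both were called higher (0.57, edgeR adjusted p = 0.00975, and 0.57, edgeR adjusted p = 0.00713). Without DO326 alone Igtp (0.075) and Irgm2 (0.030) turned to higher in males, uncalled. Leaving out DO326 kept the count at 3 (Irgm1, Iigp1 and Gbp7), with 55.2% of all genes passing. Leaving out the 24 animals with the highest GTPase levels raised it to 5 (these 3, Gbp2 and Gbp3), with 53.9% of all genes passing; those animals were chosen by the levels of these same genes.

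**Figure D2:**
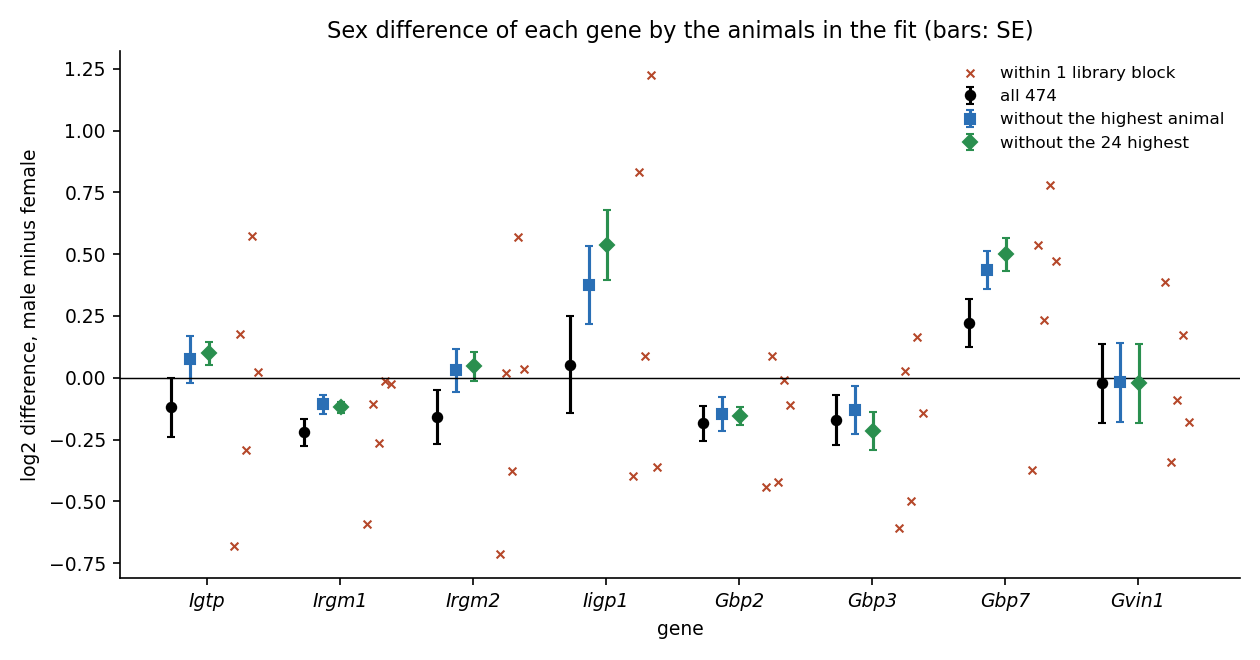
Male minus female difference of each GTPase on the log2 scale from edgeR's fit, over all animals, without DO326, and without the 24 highest animals. Bars are the SE, which is narrower than a 95% interval, and crosses are fits within single library blocks. The difference of Gbp7 moves from 0.22 to 0.50 and that of Irgm1 from -0.22 to -0.12 as the high animals are left out. The SE bars of Iigp1 and Gbp7 become shorter.

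The generation comparison asked whether levels differ between the 5 generation labels. With all animals, 7 of the 8 GTPases differed between generations in edgeR's quasi-likelihood test, against 7.56% of all genes, and for each of the 7 the fitted level was highest in generation 21. The largest difference was that of Iigp1, whose fitted levels in generations 21 and 18 were 2.83 log2 units apart (edgeR adjusted p = 3.78e-20). The difference was 1.62 for Igtp (edgeR adjusted p = 7.10e-19), 1.33 for Irgm2 (2.04e-14), 1.00 for Gbp7 (2.70e-09), 0.55 for Gbp3 (0.0443), 0.53 for Irgm1 (3.54e-09) and 0.49 for Gbp2 (0.00121), while Gvin1 differed by 0.24 (0.905).

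The medians of the generations lay close together. For Iigp1 the lowest, median and highest animal had 0.352, 4.16 and 92.7 CPM in generation 17, 0.355, 3.85 and 37.6 CPM in generation 18, and 0.279, 3.69 and 81.6 CPM in generation 19. In generation 21 they had 0.346, 4.14 and 2814 CPM and in generation 23 0.429, 3.49 and 59.6 CPM. The medians thus lie within 1.19-fold of each other, and generation 21 stands out by its highest animals. For Igtp the medians ran from 5.02 CPM in generation 17 to 5.75 CPM in generation 23, and across the 8 genes the highest median exceeded the lowest by 1.04 to 1.33 times. Only for Irgm1 was the highest median in generation 21.

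The count depended on which animals were in the fit. Without DO326, 5 of the 8 passed (Igtp 0.78, Irgm1 0.20, Irgm2 0.60, Iigp1 1.04 and Gbp2 0.38, edgeR adjusted p between 1.58e-05 and 0.0428), against 7.47% of all genes. Gbp7 (0.34, edgeR adjusted p = 0.283) and Gbp3 (0.43, edgeR adjusted p = 0.215) no longer passed. Without the 4 highest animals none passed at 0.05, against 7.27% of all genes, and 1 of the 8, Irgm2, had an unadjusted p under 0.05. These 4, of which 3 were generation 21 females, were chosen by the levels of these same genes. Fewer calls among the 8 therefore follow in part from that choice, which the share over all genes does not carry. Without the 24 highest animals Irgm2 passed (0.35 log2 units between generations 23 and 17, edgeR adjusted p = 0.0202), against 6.82% of all genes, and the other 7 did not. Its medians, 8.13 CPM in generation 17 to 10.8 CPM in generation 23, were the furthest apart of the 8 genes. limma on the deposited variance-stabilised values called none, with 2 at an unadjusted p under 0.05, and DESeq2, which replaced 1 or 2 extreme counts each of Igtp, Irgm1, Irgm2, Iigp1 and Gbp7, called 6. Gbp3 no longer passed without the 5 libraries against their label (0.56, edgeR adjusted p = 0.0514) or with each library scaled by its total count alone (0.53, edgeR adjusted p = 0.0601). Its difference in the main fit was 0.55, so the size hardly moved.

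Whether the sex difference itself changed with generation was tested by the interaction. Here 6 of the 8 GTPases passed in edgeR's quasi-likelihood test, against 0.531% of all genes (100 of 18823): Igtp, Irgm1, Irgm2, Iigp1, Gbp2 and Gbp7. Without DO326 3 passed (Igtp, Irgm2 and Gbp2), against 0.404% of all genes, and without the 4 highest animals none passed, with 2 at an unadjusted p under 0.05. The animals left out were again chosen by the levels of these same genes, so the loss of calls follows in part from the choice. Igtp in females was 2.27, 5.47 and 830.3 CPM (lowest, median, highest) in generation 21 and 2.04, 4.601 and 7.65 CPM in generation 19. In males it was 2.34, 5.40 and 49.1 CPM in generation 21, and in generation 17 it reached 201.8 CPM around a median of 5.01 CPM. Of the 4 animals with the highest GTPase levels, 3 were generation 21 females and 1 a generation 17 male, and the medians of the 10 groups lie within 4.601 to 6.31 CPM.

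The spread around the group median was compared as well. On the deposited variance-stabilised scale, the absolute distance of an animal from the median of its group differed between the sexes for 0 of the 8 GTPases by limma, against 5.55% of all genes, and none had an unadjusted p under 0.05. It differed between generations for 0 of the 8, against 0.138% of all genes, and only Gbp7 had an unadjusted p under 0.05 (0.0143, limma adjusted p = 0.869).

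The same few animals carried the high levels of most members. Animals were ordered by a score, the mean over the 8 GTPases of the log2 CPM residual divided by its SD. It ran from -1.58 to 6.48, and the 5 highest animals had 6.48, 4.46, 4.31, 3.49 and 2.88, so that DO326 stood apart from the next animal. It was 0.981 at rank 24 and 0.930 at rank 25, with no gap at that place; the 24 highest animals are simply the upper 5%.

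DO326, the highest animal, was 151.7-fold above the median of its group (generation 21 females) for Igtp, 106.7-fold for Irgm2, 28.9-fold for Irgm1, 613.2-fold for Iigp1 and 90.1-fold for Gbp7. Its Gbp2 and Gbp3 were 13.4-fold and 13.8-fold above the group median, and its Gvin1 2.94-fold. The IRGs and Gbp7 thus stood much further out in this animal than Gbp2, Gbp3 and Gvin1. DO094, a generation 17 male, had a flatter profile, with folds of 40.3 for Igtp, 29.1 for Irgm2, 21.2 for Iigp1, 10.5 for Gbp3, 9.73 for Gbp7, 9.09 for Gvin1, 8.93 for Irgm1 and 7.51 for Gbp2. DO337, a generation 21 female, had folds of 38.5 for Iigp1, 25.03 for Igtp, 23.3 for Irgm2, 17.1 for Gbp2 and 14.5 for Gbp3. DO333, the fourth, also a generation 21 female, was 33.8-fold up for Igtp and 32.9-fold for Iigp1 but 3.42-fold for Gbp2, and its Gvin1 was 0.857 of the group median.

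Members did not keep a fixed ratio in the next animals either. In DO102 (male, generation 17) Iigp1 was 14.1-fold and Igtp 8.51-fold above the group median, with Gbp2 at 2.06-fold and Gbp3 at 2.43-fold, and DO480 (female, generation 23) had 16.03-fold Iigp1 and 7.16-fold Igtp beside 1.48-fold Gbp2 and 1.499-fold Gbp3. DO276 (male, generation 19) leaned the other way, with Gbp3 at 14.9-fold, Gbp2 at 8.06-fold and Igtp at 5.02-fold. These animals were singled out after their values were seen.

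The 24 highest animals were spread over the design. They comprised 11 females and 13 males, with 5, 3, 2, 9 and 5 animals in generations 17, 18, 19, 21 and 23 and 3, 4, 6, 6 and 5 animals in blocks 1 to 5. Of the 4 highest, 3 were generation 21 females, and the 4 came from 3 blocks. Their library totals, 53.5 to 109.8 M, lay inside the range of all libraries. Taking each gene on its own, 84.2% of the animals were among the 24 highest of no GTPase, 41 animals of exactly 1, and 5 of all 8. Of their 24 highest animals, 18 were shared by Igtp and Irgm2, by Irgm1 and Irgm2, by Igtp and Gbp2, and by Gbp2 and Gbp3. The other pairs without Gvin1 shared 9 (Iigp1 and Gbp7) to 17, and Gvin1 shared 6 to 8 with the others.

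Other interferon-responsive genes were high in DO326 too, but not all of them. Cd274, which encodes the checkpoint ligand PD-L1, was at 60.4 CPM in DO326 (median of all animals 1.91), and Tgtp2, another IRG, at 150.2 CPM (median 1.36). Several antiviral genes were high as well. Ifit1, whose product binds viral RNA, was at 6.02 CPM (median 0.821) and Rsad2, which encodes the antiviral enzyme viperin, at 8.16 CPM (median 0.748), both the highest of all animals. Ifit3, a relative of Ifit1, was at 15.3 CPM (median 0.960) and Oasl2, an oligoadenylate synthetase-like gene, at 8.39 CPM (median 1.59), and the highest animals for these were DO333 and DO487. Isg15, a ubiquitin-like antiviral protein, was at 0.452 CPM in DO326 (median 0.208) and Mx1, an antiviral GTPase, at 0.393 CPM (median 0.296), and other animals were higher for both, up to 1.41 CPM for Isg15 in DO487 and 4.96 CPM for Mx1 in DO408.

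Lymphocyte markers did not follow the same order of animals. The sum over 6 T and NK cell markers was highest in DO191, a generation 18 female ranked 7 by score, at 93.4 CPM, and the sum over 4 B cell markers was highest there too, at 168.6 CPM. In DO326 the sums were 2.32 and 0.275 CPM, and in DO094, the next highest animal, 1.16 and 0.1249 CPM. The medians were 0.525 and 0.310 CPM in females and 0.458 and 0.311 CPM in males. DO191 also had the lowest sum of muscle fibre markers, 92082 CPM, and the highest sum of 10 macrophage markers, 308.1 CPM, against 150.03 CPM in DO326 and medians of 93.7 CPM in females and 91.3 CPM in males. The part of these cell types in the GTPase levels was not tested.

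Across animals the levels of the members rose and fell together. Correlations were computed on log2 CPM after removal of the sex and generation means, for 28 pairs, with 100000 permutations each; the smallest p the permutations can give is 1e-05. For the 21 pairs without Gvin1 the median Pearson r was 0.592 (0.416 to 0.894) and the median Spearman rho 0.406, and all 21 had the smallest permutation p for both, with adjusted p = 1.04e-05 for r and 1.12e-05 for rho. The closest pair was Igtp and Irgm2 (r = 0.894, rho = 0.839), whose genes overlap. Next came Igtp and Irgm1 (r = 0.720, rho = 0.355), Igtp and Gbp2 (r = 0.712, rho = 0.441) and the neighbours Gbp2 and Gbp3 (r = 0.691, rho = 0.558). The loosest of the 21 was Iigp1 with Gbp3 (r = 0.416, rho = 0.355). Leaving out, for each pair, the 2 animals farthest from the median of the first gene gave a median r of 0.521.

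The fall in r when the highest animals were left out varied by pair. These animals were ranked by the score of these same 8 genes, and cutting the upper end of such a score lowers r in itself. The fall thus cannot show how much of the correlation rested on them. The median r of the 21 pairs fell from 0.592 to 0.539 without the highest animal, to 0.471 without the 4 highest, 0.400 without the 10 highest, 0.307 without the 24 highest and 0.2496 without the 47 highest, although the median rho without the 24 highest was 0.310. Leaving out the 24 lowest animals instead gave a median r of 0.589. Leaving out the 24 animals that were highest for other interferon-responsive genes, a choice that used none of the 8 GTPases, gave 0.380; 13 of these 24 were also among the 24 highest by the GTPases. Igtp and Irgm2 stayed close (r = 0.796 without the 24 highest), Gbp3 and Gbp7 went from 0.638 to 0.490, Gbp2 and Gbp3 from 0.691 to 0.479, and Igtp and Irgm1 from 0.720 to 0.171. By class, the median r among the IRGs went from 0.608 to 0.264, among the GBPs from 0.638 to 0.479, and between IRGs and GBPs from 0.573 to 0.293. Of the 28 pairs, 26 still had an adjusted permutation p under 0.05 without the 24 highest animals.

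**Figure D3:**
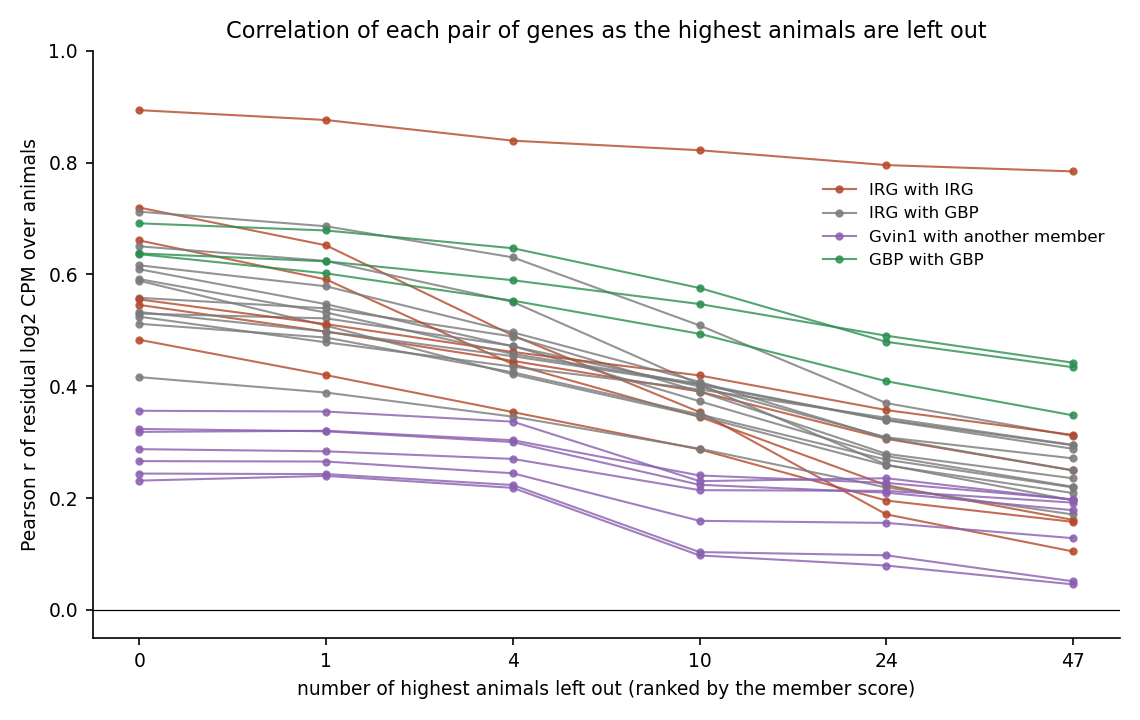
Pearson r of each pair of GTPases (y axis) against the number of highest animals left out, 0, 1, 4, 10, 24 or 47 (x axis), for pairs among the IRGs, among the GBPs, between the 2 families and with Gvin1. Igtp and Irgm2 stay between 0.784 and 0.894, while Igtp and Irgm1 drop from 0.720 to 0.171 at 24 animals left out.

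Within single sexes, blocks and generations 22 to 28 of the 28 pairs passed the permutation test, with the lowest number, 22, within generation 19. The median r of the 21 pairs was 0.665 within females and 0.512 within males, and 0.501 to 0.653 within the 5 blocks. Within generations it was 0.579, 0.505, 0.402, 0.765 and 0.399 for 17, 18, 19, 21 and 23, highest in the generation that holds DO326, DO337 and DO333. Removing the block means as well gave 0.593, and the deposited variance-stabilised values gave 0.621. Without the 5 libraries against their label it was 0.595.

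Among all 18823 genes, many of those whose log2 CPM followed the score of the 8 GTPases most closely were interferon-responsive genes, listed here by Pearson r over all animals as a description. They included Parp14, an ADP-ribosyltransferase (r = 0.789), Cd274 (0.775), Stat2 (0.757), Gbp4 (0.755), Gbp5 (0.752), Gbp9 (0.742), Tap1, a peptide transporter of antigen presentation (0.742), Tgtp1 (0.726) and Irf1 (0.714). Without the 24 highest animals the r was 0.681 for Gbp5, 0.642 for Gbp4, 0.641 for Gbp9, 0.627 for Parp14 and 0.541 for Cd274. The median r over all genes was 0.0013, with 90% of genes between -0.15 and 0.17, and 55 genes reached 0.5. Gene by gene, Cd274 was nearest to Gbp2 (r = 0.840), Gbp5 to Gbp3 (0.822) and Tgtp1 to Iigp1 (0.562).

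Genes of the same pathway were counted from 6 lists chosen with earlier results of these data known, and the counts are descriptions beside the background given above. Of the 17 tested genes for interferon receptors and signal transducers, 6 were higher and 5 lower in males, and 7 differed between generations (4 without DO326). Socs1, a feedback inhibitor of the receptors, was 2.17 log2 units higher in males (edgeR adjusted p = 3.19e-31), and Nlrc5, a transactivator of MHC class I genes, was lower, at -0.51 (edgeR adjusted p = 5.80e-05). The genes for interferon-gamma and interferon-beta themselves, Ifng and Ifnb1, were too low to be tested. The median r to the GTPase score was 0.19 for this list, with 0.01 for the kinase gene Jak1. Of 26 other interferon-induced GTPases, 2 were higher in males (Gbp6 and Gbp10) and 6 lower, and 9 differed between generations with DO326 and 2 without it. Gm4841, an Iigp1 relative, showed the largest difference between generations, 2.05 log2 units, or 0.74 without DO326. The median r to the score was 0.36 for this list.

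For antiviral interferon-stimulated genes such as Ifit1 and Oas3, 5 of 30 were higher and 11 lower in males, and 2 differed between generations (Parp14 and Cmpk2), 1 of them without DO326, beside 7.56% of all genes with DO326. Of 6 interferon-gamma-induced chemokine and checkpoint genes, Cxcl11 was higher and Cxcl9 and Ccl5 lower in males. In the MHC class I presentation list, 8 of 13 were lower and 2 higher in males, with Psmb9, an immunoproteasome subunit, at -0.46 (edgeR adjusted p = 1.11e-06). The median sex difference was -0.08 for that list and -0.01 over all genes. Its median r to the score was 0.57, compared with 0.44 for the antiviral genes and 0.35 for the chemokines. Without the 24 highest animals these were 0.30, 0.33 and 0.21, so the order of the first 2 turned. The 10 autophagy conjugation genes, whose products help to place these GTPases on vacuoles, had a median r of -0.06.

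Markers of other cell types in muscle were set beside the GTPases. By edgeR's test, all 6 tested T and NK cell markers (median -1.71 log2 units, 6 of 10 listed being tested) were lower in males, as were all 4 B cell markers (median -1.90). Of 5 adipocyte markers 4 were lower, and the other, Lep, was higher (0.55, edgeR adjusted p = 1.1e-04). All 7 endothelial markers were higher (median 0.13), beside 24.4% of all genes higher and 30.6% lower in males. The T and NK cell sum ran from 0.0498 to 93.4 CPM in females and from 0.0609 to 34.7 CPM in males, and the B cell sum from 0.0185 to 168.6 and from 0.0336 to 59.4 CPM. Of 10 macrophage markers, 1 was higher and 2 lower in males. As descriptions over all animals, the summed macrophage markers had r = 0.318 with the GTPase score (0.229 without the 24 highest animals), T and NK cell markers 0.178, B cell markers 0.126, adipocyte markers 0.107, fibro-adipogenic progenitor markers 0.038, endothelial markers 0.024 and muscle fibre markers -0.172. Their part in the differences between sexes and between animals was not tested.

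Gvin1 behaved unlike the other 7. It had under 3 counts in 51 animals, with 1.88 counts as the highest value among them, and at least 20.5 counts in every other animal, so the animals form 2 separate clusters. The 51 were 26 females and 25 males, with 7, 9, 9, 12 and 14 in generations 17, 18, 19, 21 and 23. Gm4070, the neighbouring family member with which Gvin1 shares 96.7% of its words, had 4.46, 16.7 and 42.04 CPM (lowest, median, highest) in the 51 animals and 2.98, 10.2 and 60.6 CPM in the others. The 2 ranges overlap, and no animal was near 0 for Gm4070. On the log2 scale the SD between animals was 2.60 for Gvin1, 0.74 for Gm4070 and 0.71 for the sum of both. Other genes were near 0 in the 51 animals too. Gm8979, which shares 10.01% of the words of Gvin1, had a median of 0 CPM there (highest 0.0507) against 0.690 CPM in the others, and Trim30d, a TRIM family gene, had a median of 0.0209 CPM (highest 0.129) against 0.420 CPM. Both also reached 0 in some of the other animals, so their ranges overlap. Why these animals have so few Gvin1 counts was not tested.

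Within the animals that had Gvin1 counts, its correlations with the other GTPases were weaker than those among the 7. The median r of its 7 pairs was 0.287, from 0.231 with Irgm1 to 0.356 with Gbp2, and all 7 passed (adjusted permutation p at most 2.00e-05 for r). Without the 24 highest animals the median was 0.210. Over all animals, as a description, the summed Gvin1 and Gm4070 level had r = 0.397 (Irgm1) to 0.642 (Gbp2) with the 7, and Gm4070 alone 0.370 to 0.621. Outside the list, the genes nearest to Gvin1 were Trim30d (r = 0.642), Trim5 (0.597) and Gm8979 (0.554).

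**Figure D4:**
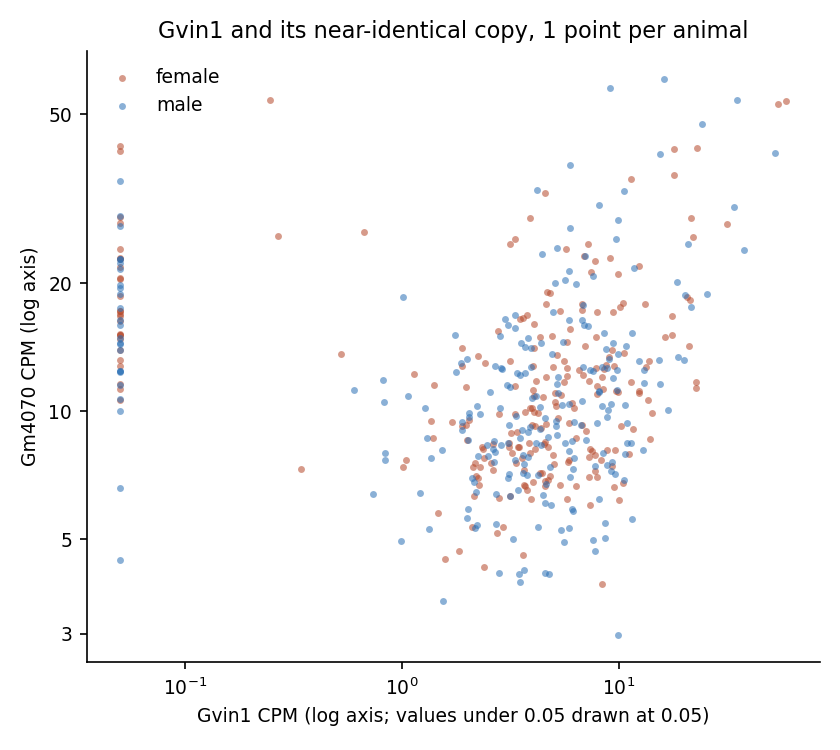
Gvin1 (x axis) against its near copy Gm4070 (y axis) in every animal, both in CPM, with the 51 animals under 3 Gvin1 counts set apart. Those 51 lie at the left edge with Gm4070 between 4.46 and 42.04 CPM, within the range of the other animals, 2.98 to 60.6 CPM.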

How the data were processed

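Expected counts per gene and variance-stabilised scores for 474 libraries (235 females, 239 males) were deposited by the authors, who pooled both mates and mapped every read singly to the founder strains' transcripts (GRCm38), estimated expected counts with EMASE in GBRS, filtered genes and applied the variance-stabilising transformation of DESeq2; tool versions and strand setting are not given in the sources used here. In these files 68.6% of the deposited expected counts are whole to the sixth decimal. The columns of 2 pairs of animals stand in exchanged places in the tables, and column names were taken as right; 1 pair, DO048 and DO308, is among the 5 libraries against their label.

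Counts were rounded and tested with edgeR 4.0.16 (TMM factors 0.871 to 1.29, filterByExpr minimum count 10, which removed 1789 genes, quasi-likelihood F-test, sex plus generation, Benjamini-Hochberg adjustment over 18823 genes, threshold 0.05), with limma 3.58.1 and DESeq2 1.42.0 as alternatives, under R 4.3.3. An interaction model tested sex by generation. Spread was tested with limma on the distance from the group median. Levels are CPM, and correlations used log2 CPM with a prior count of 2. The fits were also run on simulated counts with known changes, and the permutation test on simulated pairs. The simulated counts were given no extreme animals, so they do not bear on calls that rest on a few such animals. Promoters are RefSeq sequences (GRCm38.p6), and gene positions are from GENCODE M21; 20612 of 20612 gene identifiers matched.

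All 8 genes are described, by the rule that named them, and the genes named beside them are the nearest by Pearson r or the ends of each list, of which 1 gene is not reported here. The genes given for DO326 and some of those behind small counts fall outside this rule and were chosen after their values were seen. The members, lists and this rule were chosen with earlier results of these data known. Against the design set at the outset, the Gvin1 pairs were computed over 423 animals, since its levels form 2 clusters. Each animal is 1 library, and replicate numbers are animal numbers. The authors' tables hold no test results.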

Additional observations from a re-analysis of the deposited data

Results flagged for a closer look

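The sex difference of 6 GTPases differed between generations by the interaction term of edgeR's quasi-likelihood test, and these 6 results call for a closer look. The adjusted p was 7.83e-17 for Igtp, 1.53e-12 for Irgm2, 4.85e-11 for Iigp1, 2.41e-07 for Irgm1, 2.12e-04 for Gbp7 and 0.00134 for Gbp2. The largest and smallest sex difference over the 5 generations were 3.18 log2 units apart for Igtp, 2.69 for Irgm2, 4.24 for Iigp1, 1.12 for Irgm1, 1.61 for Gbp7 and 1.16 for Gbp2. Without the single animal DO326 the adjusted p was 1.26e-07 for Igtp, 1.70e-04 for Irgm2 and 0.0375 for Gbp2, and it was 0.0950 for Irgm1, 0.174 for Iigp1 and 0.980 for Gbp7. Without the 4 highest animals it was between 0.427 and 1.00 for the 8 GTPases. These animals were chosen by the levels of these same genes. DESeq2, with extreme counts replaced, gave 4.59e-06 for Igtp, 0.0214 for Irgm2, 9.23e-04 for Gbp2 and 0.105 to 0.977 for the other 3.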

How the results depend on the processing

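Results were recomputed under 17 alternatives for sex and for generation, 10 for the interaction and 5 for the spread. The alternatives without the highest animal and without the 4 highest were chosen after seeing the data. Animals left out as highest were ranked by these same genes, except where other interferon genes are named. The number of GTPases called for sex was 3 of 8, against 5 without the 24 highest animals and 5 without a generation term, 1 within block 3 and 0 within block 5. For generation it was 7, against 1 (Irgm2) without the 24 highest, 3 within block 3, and 0 within blocks 2, 4 and 5, without the 4 highest, and with limma on the deposited scores. For the interaction it was 6, against 3 with DESeq2 and without the highest animal, and 0 with limma on the deposited scores and without the 4 or 24 highest. For the spread between sexes it was 0, against 1 (Gbp2) without the 24 highest, and for the spread between generations it stayed 0. The median r of the 21 pairs, 0.592, moved by more than its SD between generations, 0.152, to 0.400, 0.307 and 0.2496 without the 10, 24 and 47 highest, to 0.380 without the 24 highest by other interferon genes, to 0.402, 0.765 and 0.399 within generations 19, 21 and 23, and to 0.406 as rho. The median r of the 7 Gvin1 pairs, 0.287, moved to 0.178 without the 47 highest, 0.196 without the 24 highest by other genes, and 0.386 and 0.392 within generations 17 and 18.

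The sex difference turned to higher in males for Igtp with limma on the deposited scores (0.043), within blocks 2, 4 and 5 (0.18, 0.57 and 0.022), and without the 24, the 4 or the highest animal (0.10, 0.12 and 0.075). It did so for Irgm2 within the same blocks (0.019, 0.57 and 0.035) and without the 24, the 4 or the highest (0.046, 0.074 and 0.030), for Gbp2 within block 2 (0.090), for Gbp3 within blocks 2 and 4 (0.027 and 0.16) and for Gvin1 within blocks 1 and 4 (0.39 and 0.17). It turned to lower in males for Iigp1 without a generation term (-1.07) and within blocks 1 and 5 (-0.40 and -0.36), and for Gbp7 within block 1 (-0.37). Uncalled spread differences between the sexes changed sign for Irgm1 on log2 CPM (4.71e-04) and without the 24, 4 or 1 highest (0.014, 0.020 and 0.014), for Iigp1 (-0.0048) and Gbp3 (0.0044) on log2 CPM, for Gbp3 without the 4 highest (0.0019), and for Gvin1 on log2 CPM (-0.023), without the libraries against their label (-0.0065), and without the 24 or 4 highest (-0.0069 and -0.0061). The correlation of Iigp1 and Gvin1 was -0.041 within generation 19. The cause was not tested for any of these. No paired analysis was possible because the groups share no replicate number.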
